A study of Mus musculus with 2 samples.

Results

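The 10 genes described here build cartilage matrix or act in the growth plate, and they were chosen by name as Acan, Hapln1, Comp, Matn1, Matn3, Snorc, Ucma, Cnmd, Ihh and Trps1. All 10 were matched among the 21938 protein-coding genes of GENCODE M21 on the main chromosomes of mm10. DNase-seq, which maps open chromatin by cutting accessible DNA in nuclei with DNase I, was run on facial prominence tissue of B6NCrl mouse embryos at embryonic day 14.5. Males and females were pooled, the embryos were labelled healthy, and there was no treatment, mutant or second tissue. The single group had 2 biological replicates, taken as separate tissue samples recorded under the same donor. For each gene, the peaks and hotspots of both replicates were taken over the gene body and 100 kb on each side. A promoter peak lay within 500 bp of any start site of the gene, and a distal site lay over 1 kb from every annotated start site.

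Hyaline cartilage is a matrix of collagen fibrils filled with aggrecan, which binds hyaluronan and holds water. Chondrocytes secrete this matrix under the control of SOX9 with SOX5 and SOX6, and in the growth plate they divide, enlarge and are replaced by bone while Indian hedgehog and parathyroid hormone-related protein set the pace. In the embryonic face the same cells form Meckel's cartilage, the nasal capsule and the cartilages of the skull base.

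Replicate 1 had 304489 peaks of 150 bp and replicate 2 had 218221, and each peak carries the authors' score, which ran from 1 to 150 in replicate 1 and from 1 to 146 in replicate 2, with medians of 50 and 37. Hotspots are broader regions and numbered 278129 and 198656. The depth is unknown because no read counts came with the lists, so absence of a call does not mean closed chromatin. A call was shared where it overlapped one of the other replicate by at least 1 bp, and shared peaks that touched were joined into 177440 sites, of which 140271 were distal. The tissue label was set beside marker lists, where 67.5% of all protein-coding genes had a shared promoter site. Such sites were present at 15 of 15 genes of facial mesenchyme, 8 of 8 of epithelium and 7 of 7 of neurons. Skeletal muscle had them at 5 of 8, erythroid cells at 1 of 7 and hepatocytes at 1 of 7. Promoter CpG content, described below, was not compared between these lists, so the counts alone do not establish the tissue. With 2 replicates of 1 group no test across conditions exists, and the values below are descriptions of these libraries.

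Open promoters were called at some of the cartilage genes and not at others. Acan, Matn3, Hapln1 and Trps1 had a shared promoter site, which is 4 of 10 genes, against 67.5% of all protein-coding genes. A promoter peak was called at 5 of 10 genes in replicate 1, against 70.9% of all genes, and at 6 of 10 in replicate 2, against 68.7%. Matn1 had peaks in both replicates that did not overlap, and Ihh had one in replicate 2 alone. Comp, Cnmd, Snorc and Ucma had no promoter peak in either replicate, 4 of 10 genes against 28.1% of all genes. Hotspots gave the same counts of 5 and 6 genes, against 71.2% and 69.0% of all genes. In a whole tissue, a few cells with an open promoter and a weakly open promoter in many cells cannot be told apart.

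**Figure D1:**
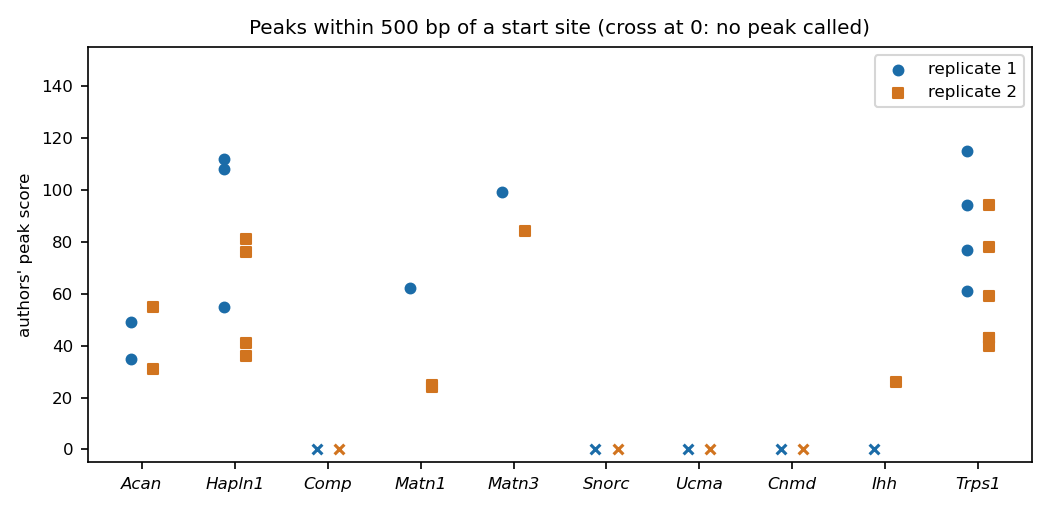
The authors' score of every peak within 500 bp of a start site (vertical axis, no unit) for each gene, with circles for replicate 1, squares for replicate 2 and a cross at 0 where no peak was called. Hapln1, Trps1 and Matn3 hold all peaks above 75, and Comp, Snorc, Ucma and Cnmd have crosses in both replicates.

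Aggrecan and its link protein form the water-holding aggregate of cartilage. Acan, which encodes aggrecan (chr7:79053483-79115099, plus strand), had a promoter peak 232.5 bp upstream of its GENCODE start site with a score of 49 in replicate 1, and 292.5 bp upstream with a score of 55 in replicate 2. A second, weaker pair lay 307.5 bp downstream with 35 and 327.5 bp downstream with 31. The upstream peak covered the RefSeq start site of Acan in both replicates, 257 bp upstream of the GENCODE one. The hotspots there had −log10 q-values of 2.5 and 1.67 in replicate 1 and of 3.58 and 2.14 in replicate 2, far under the ceiling of 100, and Acan lost its shared promoter site when only peaks at or above the median score of each list were used. Its 2 strongest distal sites scored higher than its promoter in both replicates. The first, 63.0 kb upstream in intergenic sequence at chr7:78990416-78990565, scored 117 in replicate 1 and 89 in replicate 2, and the second, 27.5 kb downstream in an Acan intron at chr7:79080896-79081045, scored 89 and 86. Another, 31.8 kb upstream within an intron of the antisense gene Gm26633, scored 74 and 42.
A neighbour of the intronic site, at chr7:79080316-79080505, had weaker scores of 44 and 23 and was chosen after values were seen. It held an inverted pair of SOX half-sites, the arrangement that SOX9 dimers bind in cartilage enhancers. No other of the 76 sites nearest to these genes held one, a share of 1.32%, close to the 0.960% of all shared distal sites. SOX9 binding was not tested. This neighbour is shown, together with the strongest Acan site, in the direction of the gene (plus strand, mm10). Capitals mark matches to the SOX core and the inverted pair described with the motifs.
Acan 63.0 kb upstream: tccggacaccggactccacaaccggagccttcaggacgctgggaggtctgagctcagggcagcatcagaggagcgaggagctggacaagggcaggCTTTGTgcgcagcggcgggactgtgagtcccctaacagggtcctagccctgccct
Acan 26.9 kb downstream: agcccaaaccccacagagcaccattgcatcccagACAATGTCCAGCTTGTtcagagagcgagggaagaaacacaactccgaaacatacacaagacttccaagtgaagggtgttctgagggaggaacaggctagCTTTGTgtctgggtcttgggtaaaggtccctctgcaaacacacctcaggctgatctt

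Hapln1 encodes the link protein that fixes aggrecan to hyaluronan (chr13:89539796-89611652, plus strand) and had a broad open promoter. The 3 promoter peaks of replicate 1 scored 108, 112 and 55, and the 4 of replicate 2 scored 81, 76, 36 and 41. The strongest hotspots reached the ceiling of 100 in both replicates. These peaks lay around the GENCODE start site, and the RefSeq start site lies 840 bp further downstream. Within the gene, 2 intronic sites stood out, at chr13:89543116-89543265, 3.39 kb downstream of the start, with scores of 77 and 81, and at chr13:89548336-89548525, 8.63 kb downstream, with 73 and 52. Both held a match to the core of the binding motif of CTCF, the protein that anchors chromatin loops. Another site lay past the gene, 94.6 kb downstream of the start, and scored 60 and 58. The first is shown with its CTCF match in capitals (plus strand).
Hapln1 3.39 kb downstream: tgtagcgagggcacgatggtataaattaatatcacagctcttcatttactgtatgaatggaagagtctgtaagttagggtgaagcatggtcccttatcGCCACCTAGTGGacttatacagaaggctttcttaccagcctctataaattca

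The Hapln1 window also reached the neighbouring gene of versican, Vcan, another large hyaluronan-binding proteoglycan. Of the 12 shared distal sites in the window, 6 were nearest to Hapln1 and 6 to Vcan, all 6 of them within the body of Vcan. The strongest of these scored 101 and 69 at chr13:89708636-89708805.

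The bridging proteins of the matrix differed from each other at their promoters. Matn3, one of the matrilins that link collagen fibrils to proteoglycans (chr12:8947929-8972028, plus strand), had the most compact open promoter. A single peak lay over its start site, with a score of 99 at chr12:8947796-8947945 in replicate 1 and of 84 at chr12:8947816-8947965 in replicate 2, and hotspots reached 100 in both. These scores were at or above 92.6% of the peaks of replicate 1 and 91.3% of those of replicate 2. The promoter is printed from RefSeq (GRCm38.p6, chr12:8947679-8947978, plus strand, 250 bases before to 50 after the start), with its 15 CpG dinucleotides in capitals.
Matn3 promoter: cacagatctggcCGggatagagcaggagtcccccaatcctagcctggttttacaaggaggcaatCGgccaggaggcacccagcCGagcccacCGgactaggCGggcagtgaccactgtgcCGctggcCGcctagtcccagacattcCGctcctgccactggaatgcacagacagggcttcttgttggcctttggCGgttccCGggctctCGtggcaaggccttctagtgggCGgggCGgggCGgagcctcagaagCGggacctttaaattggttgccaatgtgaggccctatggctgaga

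The window of Matn3 held 15 shared distal sites. The start site nearest to 7 of them was that of Laptm4a, to 6 that of Ttc32 and to 1 that of Wdr35. This last one lay inside Matn3, in an intron 22081.5 bp downstream of its start at chr12:8969936-8970085, and was strong, with scores of 100 in replicate 1 and 63 in replicate 2. The only one nearest to Matn3 was weak, with scores of 30 and 17, and lay in a Laptm4a intron 11.6 kb upstream in sequence that was 100% repeat. The strongest peak called in replicate 1 alone over all 10 windows, with a score of 74, lay inside Matn3 at chr12:8954356-8954505, level with one in the Ucma window near Sephs1.

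Matn1, also known as cartilage matrix protein and a matrilin too (chr4:130944385-130955475, plus strand), had promoter peaks that missed each other. The peak of replicate 1 scored 62 at chr4:130944056-130944205. Replicate 2 had overlapping peaks of 24 and 25 further upstream, at chr4:130943856-130944005 and chr4:130943876-130944025. The hotspot of replicate 1, at chr4:130943957-130944432, had a −log10 q-value of 6.0 and reached over the start site. That of replicate 2 had 1.44 and ended before the hotspot of replicate 1 began. The replicate 2 peak at chr4:130943876-130944025 did overlap the replicate 1 hotspot. In the whole window, 22 of 39 peaks of replicate 1 (56.4%) and 22 of 28 of replicate 2 (78.6%) were shared, and peaks found in replicate 1 alone scored up to 70. Matn1 was nearest to 11 of the 22 shared distal sites in its window, and Laptm5 to the other 11. The site 29.3 kb downstream of the start, at chr4:130973596-130973785, scored 89 and 78. Sites 15.9 kb and 40.4 kb downstream scored 78 and 65, with a CTCF match, and 81 and 50, with a SOX core in an intron of the noncoding gene Gm12973.

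Comp, the cartilage oligomeric matrix protein, which joins collagen fibrils (chr8:70373558-70382066, plus strand), had no promoter peak. The nearest peak lay 1118 bp from the start in replicate 1, with a score of 86, and 858 bp away in replicate 2, with 29. Its strongest site was an intronic one with its centre 1.18 kb downstream of the start, at chr8:70374656-70374825, which scored 86 in replicate 1 and 78 in replicate 2. The site is rich in G and C, at 73.5%, holds 15 CpG dinucleotides and no SOX core, RUNX or CTCF match, and is shown without capitals for that reason (plus strand).
Comp 1.18 kb downstream: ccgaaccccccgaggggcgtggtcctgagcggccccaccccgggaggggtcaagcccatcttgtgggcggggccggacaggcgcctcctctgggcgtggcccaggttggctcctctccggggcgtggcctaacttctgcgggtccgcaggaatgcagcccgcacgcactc

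The window of Comp was the most crowded, with 9 other protein-coding genes. Of its 26 shared distal sites, 2 were nearest to Comp and 11 to Crtc1, a coactivator of cAMP signalling. The second Comp site, 9.95 kb downstream of its start with scores of 80 and 64, lay in a Crtc1 exon.

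The small chondrocyte proteins Snorc, Ucma and Cnmd had no promoter peak, and each had open sites nearby. Snorc, a membrane proteoglycan of chondrocytes (chr1:87470271-87475482, plus strand), had its nearest peaks 1325 bp from the start in replicate 1, with a score of 64, and 1365 bp away in replicate 2, with 25. Its most open site by mean rank lay 22.6 kb upstream in a Gigyf2 intron at chr1:87447616-87447765 and scored 64 and 59. Others lay 1.75 kb upstream, with 49 and 42, and 16.2 kb downstream in an Ngef intron, with 62 and 27. Ucma, a secreted protein of the upper growth plate that carries gamma-carboxyglutamate (chr2:4976122-4985748, plus strand), had a single strong intronic site 2.18 kb downstream of its first start, at chr2:4978216-4978385, with 91 and 65. The next, 2.78 kb downstream, scored 52 and 28, and the last, 17.8 kb upstream, scored 34 and 18. The strongest site of each is shown because both hold a RUNX match, and the Snorc site also a CTCF match (capitals, plus strand).
Snorc 22.6 kb upstream: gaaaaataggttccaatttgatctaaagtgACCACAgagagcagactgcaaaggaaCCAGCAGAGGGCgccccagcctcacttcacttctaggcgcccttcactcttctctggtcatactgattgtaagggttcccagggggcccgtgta
Ucma 2.18 kb downstream: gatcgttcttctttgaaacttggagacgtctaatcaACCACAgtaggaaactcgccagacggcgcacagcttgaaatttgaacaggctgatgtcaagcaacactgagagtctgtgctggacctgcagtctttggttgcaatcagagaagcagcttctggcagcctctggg

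Cnmd encodes chondromodulin, a cartilage glycoprotein that keeps blood vessels out (chr14:79637690-79662170, minus strand). Its nearest peaks were just outside the promoter window, 699 bp from a start site with a score of 62 in replicate 1 and 679 bp away with 55 in replicate 2, so a window of 1000 bp added Cnmd to the genes with a shared promoter site and made them 5. Upstream of the gene lay a cluster of sites in intergenic sequence. They scored 106 and 65 at chr14:79677996-79678165, 15.9 kb upstream, 100 and 59 at 15.4 kb, and 71 and 40 at 14.4 kb. Cnmd was nearest to 10 of the 16 shared distal sites in its window. Its promoter (RefSeq, GRCm38.p6, chr14:79662134-79662433, minus strand) holds 1 CpG, in capitals, and is shown beside the strongest site of the upstream cluster (minus strand), which has no SOX core, RUNX or CTCF match.
Cnmd promoter: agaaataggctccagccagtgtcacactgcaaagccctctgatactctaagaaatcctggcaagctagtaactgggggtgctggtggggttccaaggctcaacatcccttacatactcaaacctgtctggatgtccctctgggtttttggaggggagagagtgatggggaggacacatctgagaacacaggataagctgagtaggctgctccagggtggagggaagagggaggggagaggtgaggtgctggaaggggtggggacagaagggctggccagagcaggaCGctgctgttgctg
Cnmd 15.9 kb upstream: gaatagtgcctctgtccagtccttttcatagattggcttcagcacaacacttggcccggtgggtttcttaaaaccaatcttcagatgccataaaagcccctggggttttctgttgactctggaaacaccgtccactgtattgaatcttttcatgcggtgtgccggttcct

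Ihh encodes Indian hedgehog, the growth plate ligand made by chondrocytes that are about to enlarge (chr1:74945315-74951672, minus strand). No promoter peak was called in replicate 1, where the nearest peak lay 1287 bp away with a score of 41, and replicate 2 had a weak one of 26 at chr1:74951696-74951845 in a hotspot with a −log10 q-value of 1.61. Hotspots covered 12.5% of the gene body in replicate 1 and 16.1% in replicate 2, more than in any of the other 9 genes in each replicate. Gene lengths differ widely, from 6358 bp at Ihh to 235712 bp at Trps1 for example. The cover was not adjusted for length or compared with all protein-coding genes. The strongest Ihh site lay 13.0 kb upstream in intergenic sequence at chr1:74964596-74964765 and scored 103 and 97. An intronic site 2.64 kb downstream of the start scored 57 and 51, and a neighbour of the strongest site, 13.3 kb upstream, scored 50 and 39.
Enhancers of Ihh that act in limb and skull are known in mouse from the introns of the neighbouring gene Nhej1, a DNA repair factor. Of the 25 shared distal sites in the Ihh window, 11 were nearest to Nhej1 and 11 lay in its body, while 5 were nearest to Ihh. The strongest of the Nhej1 sites, at chr1:75016956-75017105 and 65.4 kb upstream of Ihh, scored 94 and 85, and was singled out after its values were seen. The promoter (RefSeq, GRCm38.p6, chr1:74951623-74951922, minus strand, with 30 CpG dinucleotides in capitals) and both strong upstream sites (minus strand) are shown. Neither site held an exact match to the letters of the SOX core, RUNX or CTCF. Sequences that differ from these letters at any base were not counted, and binding was not tested.
Ihh promoter: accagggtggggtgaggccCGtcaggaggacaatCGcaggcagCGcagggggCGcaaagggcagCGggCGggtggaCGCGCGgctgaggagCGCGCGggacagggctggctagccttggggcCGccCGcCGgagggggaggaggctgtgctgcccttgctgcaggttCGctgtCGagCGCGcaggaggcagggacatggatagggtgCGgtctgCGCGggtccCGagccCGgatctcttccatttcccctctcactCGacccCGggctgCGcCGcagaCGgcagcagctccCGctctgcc
Ihh 13.0 kb upstream: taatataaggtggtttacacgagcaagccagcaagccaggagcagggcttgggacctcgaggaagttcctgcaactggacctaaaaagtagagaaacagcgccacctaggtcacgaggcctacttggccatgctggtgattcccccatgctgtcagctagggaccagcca
Ihh 65.4 kb upstream, in Nhej1: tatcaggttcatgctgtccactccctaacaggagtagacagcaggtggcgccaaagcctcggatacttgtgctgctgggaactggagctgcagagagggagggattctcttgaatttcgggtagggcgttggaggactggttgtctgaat

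Trps1, a GATA-type zinc finger repressor of the growth plate whose loss in people causes tricho-rhino-phalangeal syndrome (chr15:50654752-50890463, minus strand), had the most shared distal sites of the 10 genes, in the longest window. Around its 7 annotated start sites, the 4 promoter peaks of replicate 1 scored 77, 94, 115 and 61, and the 6 of replicate 2 scored 43, 40, 43, 78, 94 and 59. All 27 shared distal sites of its window were nearest to Trps1, no other protein-coding gene lies in the window, and 16 of the sites lay in the gene body. The strongest formed a pair deep in the gene. One, at chr15:50698616-50698765 and 191 kb downstream of the first start, scored 124 and 96, and its neighbour at chr15:50698216-50698405 scored 121 and 89. Another intronic site 20.3 kb downstream of the start scored 93 and 86. The strongest site holds 2 SOX cores close together, in capitals (minus strand).
Trps1 191 kb downstream: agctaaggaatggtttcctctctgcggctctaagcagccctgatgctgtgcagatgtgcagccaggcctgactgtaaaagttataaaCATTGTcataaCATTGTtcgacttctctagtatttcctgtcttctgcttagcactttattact

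**Figure D2:**
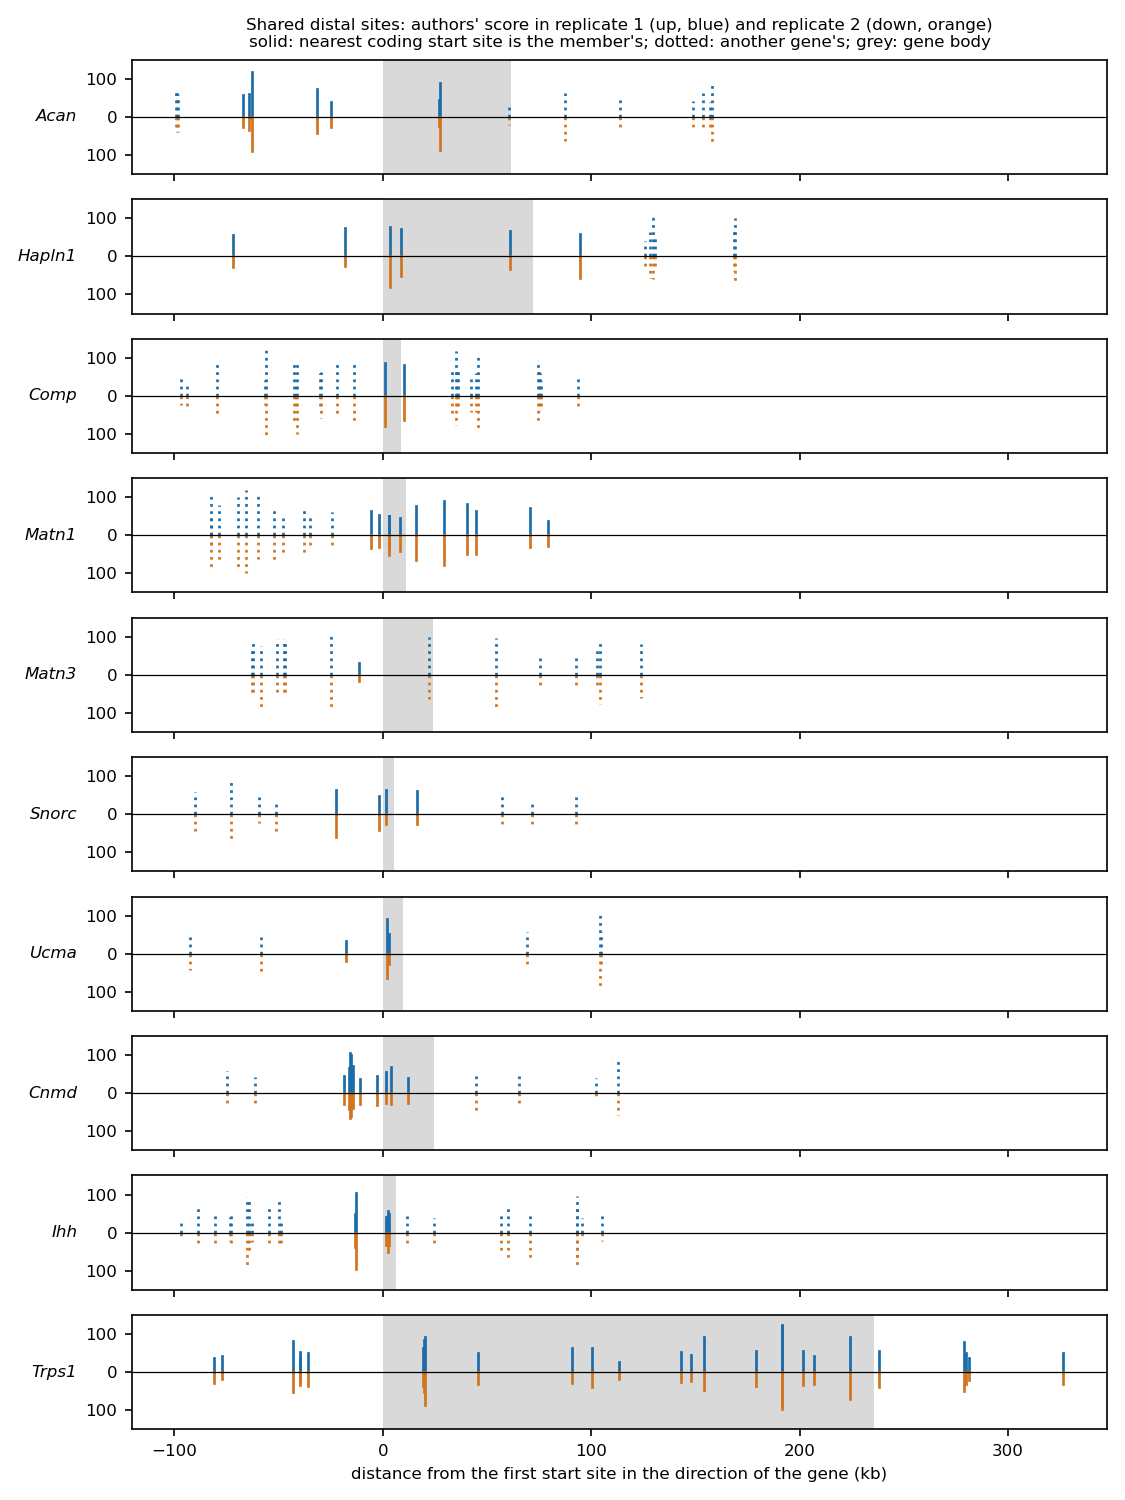
Shared distal sites by distance from the first start site in the direction of each gene (horizontal axis, kb), with the authors' score of replicate 1 upwards and of replicate 2 downwards, solid lines for sites nearest to the gene, dotted lines for sites nearest to another gene and grey for the gene body. Trps1 has solid lines across its long body, and Matn3 has 1 solid line of scores 30 and 17 among 14 dotted ones.

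Promoter opening was set beside CpG content, since CpG-rich promoters are open in most tissues. Content was measured as observed over expected CpG in 500 bp on each side of the first start site, with classes of low (under 0.4), middle and high (0.6 or more). In the low class none of 4 genes had a shared promoter site, against 25.6% of all protein-coding genes of that class, and these were Cnmd (0.131), Ucma (0.161), Snorc (0.177) and Matn1 (0.231). In the middle class Matn3 (0.548) and Hapln1 (0.535) had one and Comp (0.523) did not, 2 of 3 genes against 83.2%. In the high class Acan (0.637) and Trps1 (0.820) had one and Ihh (0.774) did not, 2 of 3 against 97.0%. Ihh was thus one of 316 among 10421 genes of the high class without a shared promoter site, and Comp one of 512 among 3052 of the middle class.

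**Figure D3:**
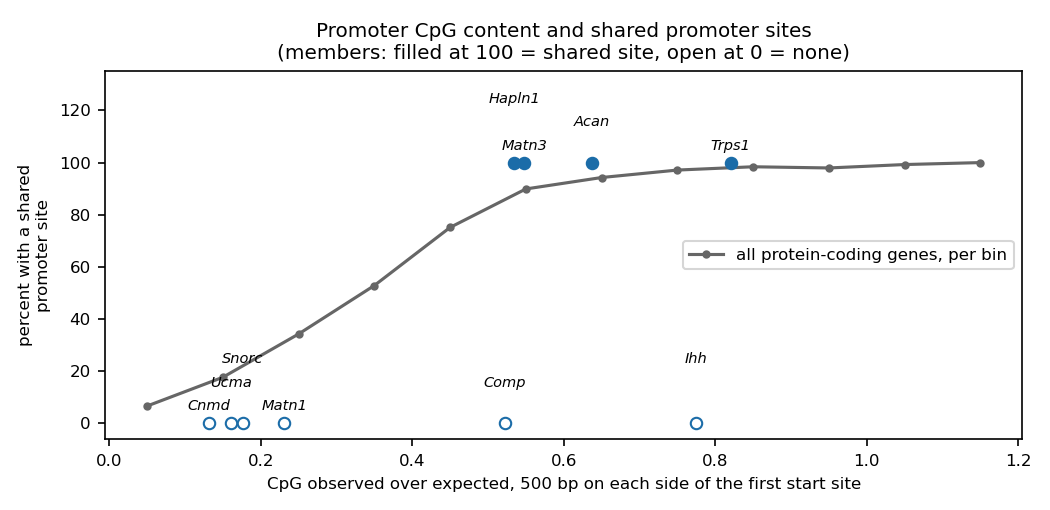
Percent of all protein-coding genes with a shared promoter site (vertical axis) by observed over expected CpG around the first start site (horizontal axis, ratio, bins of 0.1), with each of the 10 genes as a point at 100 where it had such a site and at 0 where it had none. Ihh and Comp lie at 0 where the curve is at 97.1% and 89.9%.

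The genes without a promoter peak had an open site a little inside the gene. Comp, Cnmd, Snorc and Ucma, which are all 4 of them, each had a shared distal site between 1 and 2.5 kb downstream of the first start, against 4.89% of the 6173 protein-coding genes without a promoter peak. None of the 4 genes with a shared promoter site had one, against 18.1% of all such genes, and 4 genes are too few to be told apart from that share. At Trps1, overlapping peaks at chr15:50888536-50888685 (77 in replicate 1) and chr15:50888516-50888665 (43 in replicate 2) lay in this window. They were within 500 bp of another Trps1 start site and so were not distal. Ihh also had a shared distal site in this window, and Matn1 did not. The scores in replicates 1 and 2 were 86 and 78 at Comp, 56 and 27 at Cnmd (1.57 kb, chr14:79660476-79660725), 64 and 25 at Snorc (1.42 kb, chr1:87471596-87471785), 91 and 65 at Ucma, and 41 and 32 at Ihh (1.36 kb, chr1:74950236-74950385). The Cnmd site held 1 SOX core. The limits of this window were chosen after the sites had been seen, so the count is a description, and it was 2 of 4 with the stronger peaks only. The same range upstream was not counted over all genes. Snorc had a shared distal site there too, 1.75 kb upstream with scores of 49 and 42, and Comp, Cnmd and Ucma did not.

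Away from promoters, the density of sites at the cartilage genes lay around that of all genes. All 10 had at least 1 shared distal site, as did 92.4% of all protein-coding genes. The 10 windows held 179 distinct shared distal sites, of which 76 were nearest to one of the genes. Per 100 kb of window the genes ranged from 3.82 sites at Ucma to 12.5 at Comp, with a median of 6.60, against a median of 6.30 for all protein-coding genes (quartiles 3.34 and 9.14). Hapln1 had 4.41, Snorc 5.36, Trps1 6.20, Acan 6.50, Matn3 6.69, Cnmd 7.13, Matn1 10.4 and Ihh 12.1 sites per 100 kb. The densest windows, those of Comp and Ihh, were also those with the most other protein-coding genes, 9 and 5. The next densest, that of Matn1, held 1 other gene, while the sparser windows of Ucma and Snorc held 4 each. A link between crowding and density was not tested. Without replicate 1 the median was 7.83 and without replicate 2 it was 11.7, and the sites numbered 211 and 298.

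**Figure D4:**
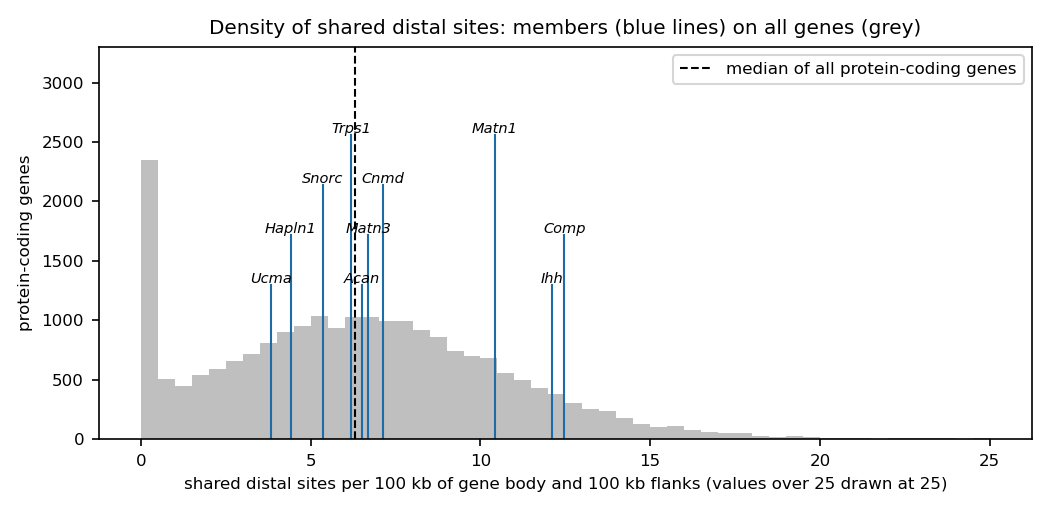
Number of protein-coding genes (vertical axis) by shared distal sites per 100 kb of gene body and flanks (horizontal axis), in grey, with a blue line at the value of each of the 10 genes, whose height has no meaning, and a dashed line at the median of all genes. The 10 genes spread over both sides of the median of 6.30, from 3.82 to 12.5.

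Most calls in these windows were found in both replicates. Replicate 1 had 386 peaks there, and 248 of them overlapped one of replicate 2 (64.2%, exact 95% Clopper-Pearson interval 59.2 to 69.0%), against 59.2% of its whole list. Replicate 2 had 308, and 253 overlapped one of replicate 1 (82.1%, 77.4 to 86.3%), against 83.6%. These intervals cover counting error only. Replicate 1 had more peaks than replicate 2 in every window, from 1.02 times at Comp to 1.62 times at Acan, with a median ratio of 1.25, against 1.27 over all genes. The shared distal sites had median scores of 61 and 39, against 60 and 38 for all such sites. Hotspots covered a median of 4.84% of the windows in replicate 1 and 3.42% in replicate 2. Over the whole main chromosomes they covered 3.18% and 2.19%, which includes sequence outside any gene window. Hotspot cover was not compared with the windows of all protein-coding genes. These values therefore do not show whether the windows were more open than those of other genes.

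The sites nearest to the 10 genes were also described by sequence and place. Their median GC content was 47.5%, against 48.7% for all shared distal sites, while all 179 sites of the windows had 51.3%, and the median width was 170 bp in both. Introns held 59.2% of the sites nearest to the genes, against 50.5%, and intergenic sequence 39.5%, against 45.2%. Trps1 alone held 27 of these 76 sites, 20 of them in introns. The windows were built around gene bodies, while the shares of all sites cover the main chromosomes. These shares therefore do not show a preference of the 10 genes for intronic sites.

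Motifs of factors that act in cartilage were searched on both strands as plain letters, so sequences that differed from them at any base were not counted. The SOX core (ACAATG or ACAAAG) was in 18 of the 76 sites nearest to the genes, 23.7%, against 23.1% of all 140271 shared distal sites. Trps1 had 8 of these sites, Acan 3, Matn1, Hapln1 and Cnmd 2 each and Snorc 1, while no site nearest to Comp, Ucma, Ihh or Matn3 held one. The SOX inverted pair (ACAA and TTGT facing each other across 7 or 8 bases), which can overlap a SOX core, was in 1 site, 1.32%, against 0.960%. RUNX (TGTGGT), the motif of RUNX2 and RUNX3, which drive chondrocyte enlargement, was in 6 of the 76 sites, 7.89%, against 15.4%. This share rests on 6 sites and was not tested against counting error, so no lack of RUNX is drawn from it. In all 179 sites of the windows the SOX core was in 18.4% and RUNX in 10.6%. AP-1 (TGANTCA) was in 9.21%, against 7.61%, and TEAD (GGAATG) in 15.8%, against 14.5%. NFAT (TTTCCA) was in 23.7%, against 21.7%, with 10 of the 18 sites at Trps1 and 5 at Cnmd. CTCF (CCA, any 2 bases, AG, any 2 bases, GGC) was in 6.58%, against 7.47%.
The rarer motifs gave single sites. GLI (GACCACCC), through which hedgehog signals act, was in 1 of the 76 sites (1.32%, against 0.406%), at Cnmd 15.4 kb upstream, and FOX (TGTTTAC) in 1 (1.32%, against 3.06%), at Trps1. The letters AGATAA, bound by zinc fingers of the GATA family, were in 4 (5.26%, against 6.73%), and MEF2 (CTA and TAG across any 4 bases) and NFI (TTGGC and GCCAA across any 5 bases) in 0, where the shares of all sites were 2.73% and 0.274%. None of the 7 promoters in the RefSeq table held a SOX core, a motif found in 28.6% of 32851 promoter windows, or TATAAA, found in 8.32%. A count over 7 promoters is small, and no test was made. The window of Hapln1 lay around its RefSeq start, 840 bp downstream of the GENCODE start, and did not cover its promoter peaks.

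**Figure D5:**
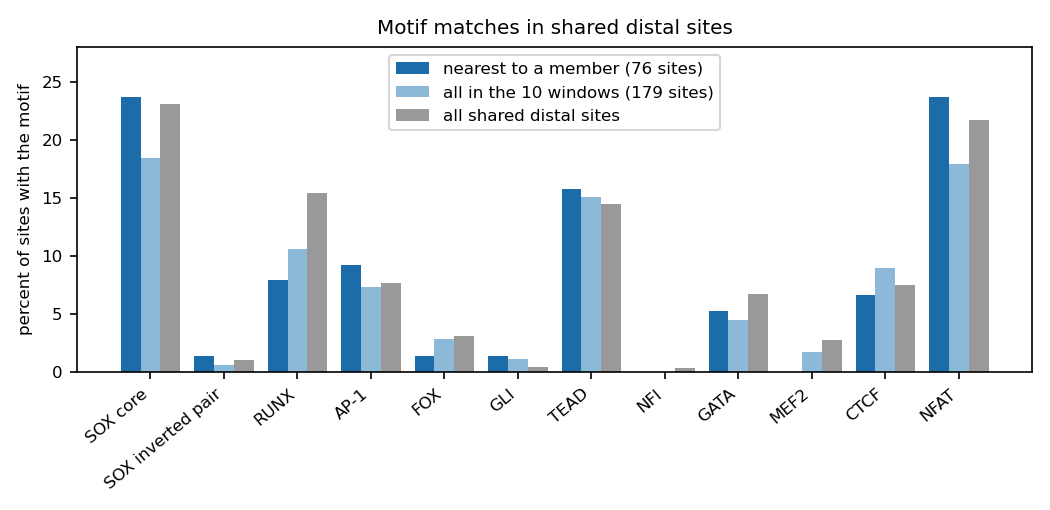
Percent of sites with each motif (vertical axis) for the 76 shared distal sites nearest to the 10 genes (dark blue), the 179 in their windows (light blue) and all 140271 (grey). The SOX core stands at 23.7% and 23.1% in the first and last set, and RUNX at 7.89% (6 sites) and 15.4%, without a test.

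A shared promoter site was found at 40% of the 10 genes, against 67.5% of all protein-coding genes. The share in the other cartilage and bone lists lay between 66.7%, for hypertrophic genes, and 100%. Promoter CpG content was not compared between the lists, so the difference cannot be told apart from one in CpG content. The 8 cartilage collagens had a shared promoter site at 7, with Col10a1, the collagen of hypertrophic chondrocytes, as the exception without a peak in either replicate, and most distal sites at Col27a1 (47), Col2a1 (29) and Col9a1 (27). Of 20 other cartilage matrix genes, 17 had one. Scrg1 and Cilp2 had a promoter peak in replicate 1 only and Epyc in replicate 2 only, and Fmod (35), Prelp (33) and Matn2 (25) had most distal sites. Chondrocyte transcription factors had one at 11 of 13 genes, with Foxa2 and Foxa3 called in replicate 1 only, and most distal sites lay at Sox6 (77), Arid5b (74) and Sox5 (62). These are counts over windows that grow with gene length, and per 100 kb Sox6 had 10.03 sites, Arid5b 19.2 and Sox5 5.37, against a median of 6.30 for all genes.

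Growth plate signalling genes, which include the receptors and effectors of hedgehog, had a shared promoter site at 21 of 21 genes, with most distal sites at Gli2 (52), Gli3 (41) and Bmpr1b (39). Hypertrophic genes had one at 6 of 9, against 67.5% of all protein-coding genes, with none at Spp1, Col10a1 or Mmp13. Of these, Mmp13 had a peak in replicate 1. Most distal sites of this list lay at Alpl (35), Enpp1 (30) and Vegfa (29). Osteoblast genes had one at 9 of 11, without Bglap and Ifitm5, and most distal sites at Runx2 (58), Col1a1 (40) and Alpl (35). The site counts of these 3 lists also come from windows that grow with gene length. Per 100 kb Gli2 had 12.4 sites, Gli3 8.78 and Bmpr1b 7.33, so the genes named are not ranked by density. The median density of shared distal sites per 100 kb was 7.08 for the collagens, 7.74 for other matrix genes, 9.34 for the transcription factors, 8.32 for signalling, 10.2 for hypertrophic and 10.8 for osteoblast genes, against 6.30 for all genes. Some genes stand in more than 1 list, and no test between lists was made.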

How the data were processed

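Per the file descriptions deposited with each sample, the authors derived peaks and hotspots separately for each replicate from its own alignments in mm10. The deposited peak lists hold the authors' score (no normalization stated), used within a list only to describe and rank. The deposited hotspot lists hold a −log10 q-value with a ceiling of 100. The sources used here give no aligner, caller or settings, and read depth is unknown. Only chromosomes 1 to 19, X and Y were used, with 304233 and 217980 peaks and 277933 and 198482 hotspots. Coordinates are 1-based and were read with the GRCm38 sequence and the basic GENCODE M21 annotation. Overlaps, merging and motif searches were done in Python 3.11.15 with pandas 2.3.3, numpy 2.4.6 and scipy 1.17.1, and checked on simulated data. The score rank of a site is the mean over replicates of its percentile in each list. Each site went to the gene whose coding start site was closest, which does not show the gene it acts on.

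The 10 genes, the lists and the motifs were chosen with earlier results of these data known. All 10 genes are named, with every promoter peak and up to 3 shared distal sites of highest mean rank nearest to each. In the cartilage and bone lists, genes without a shared promoter site and the 3 with most distal sites are named, and the marker lists are given by counts only. The downstream window, the Acan site with the inverted pair, the sites in neighbouring genes and the comprehensive annotation were chosen after values were seen. RefSeq promoters were matched for 7 of the 10 genes. Alternatives were stronger peaks, 75 bp of overlap, lists of like length, hotspots, other windows and start sites, and single replicates.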

Additional observations from a re-analysis of the deposited data

How the results depend on the processing

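The count of genes with a shared promoter site was 4 in the main setting, 3 with peaks at or above the median score (63.3% of all genes), 5 with a promoter window of 1000 bp (69.5%) and 5 to 6 in single replicates (70.9% in replicate 1 and 68.7% in replicate 2). The shared distal sites, 179 in all, numbered 92 with stronger peaks, 98 in windows of 50 kb, 76 when only those nearest to the gene counted and 211 to 298 in single replicates. The median density of 6.60 per 100 kb became 2.83 with stronger peaks (2.94 for all genes), 9.52 when only the gene's own start sites made a site proximal and 7.83 to 11.7 in single replicates (7.51 to 10.7 for all genes). The shared part of replicate 1 peaks, 64.2%, was 59.1% with 75 bp of overlap and 74% with lists of like length. That of replicate 2, 82.1%, was 91.7% with stronger peaks, 74.4% with 75 bp and 74.7% with lists of like length. The open site downstream of promoters without a peak was at 2 of 4 genes with stronger peaks (2.56% of all genes without a promoter peak), 3 with hotspots (4.60%) or a 2 kb limit (3.52%), and 4 in each single replicate (5.96% without replicate 1 and 7.86% without replicate 2). Of the site counts of single genes, 58 moved by no more than the standard deviation of the 2 single-replicate counts and 42 by more. These include the single-replicate settings themselves, which were thus judged against a spread taken from them. Of the shares of motifs other than the SOX core over the 179 window sites, 19 stayed within their binomial intervals and 3 did not. The SOX core share of 18.4% was 14.5% in the central 150 bp and 14.1% in stronger sites, within its interval. Motif alternatives were not run for the 76 nearest sites. The causes were not tested. No paired analysis was possible because the study has 1 group. The comprehensive annotation left the counts within 1.5 times. Depth is unknown, so an uncalled region may be open.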
